A study of Homo sapiens with 8 samples.

Results

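The 10 genes described here encode the proteins that switch on replication-dependent histone genes and form the unusual 3' ends of their mRNAs. They are NPAT, CASP8AP2, SLBP, LSM10, LSM11, ZNF473, CPSF2, CPSF3, SYMPK and ERI1. They were chosen by gene symbol for what their proteins do, with earlier results of these data known. All 10 were among the 60606 genes of the count table, and all 10 passed the filter on low counts that left 17184 genes for testing. They were measured in HEK293 cells, an established line grown from human embryonic kidney. Cells in D10 medium received, by Lipofectamine RNAiMax, either a mimic of a tRNA-derived RNA (tDR) that is cut from the 3' side of tRNA-Asp-GTC or a scramble control mimic. Both were given at 50 nM, and RNA was taken after 48 hours from 4 tDR and 4 control libraries. The mimic adds the fragment from outside the cell, and the table holds 1 cell line only. The labels do not say whether each library is a culture of its own. P-values therefore cover only how far these libraries vary, and that variation may be technical. In bulk RNA, fewer cells in a state and less RNA per cell cannot be told apart.

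Histone mRNAs of the replication-dependent kind carry no poly(A) tail. They end in a short stem-loop that the protein SLBP binds, and the U7 small nuclear RNP pairs with the sequence that follows and brings the cleavage enzyme, so that the cut falls just after the stem-loop. Transcription and this cut take place in histone locus bodies, and the supply of histone mRNA is tied to S phase, when DNA is copied.

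The stem-loop is shown first because SLBP and ERI1 both act on it. It was searched as a stem of 6 base pairs with a loop of 4 bases that opens with TT, within 100 bases after the stop codon of GENCODE 29 transcripts (GRCh38). Of 63 replication-dependent histone genes, 58 had a transcript with an annotated stop codon and 24 a stem-loop of this form. All 6 pairs had to match exactly, and the search ended where the annotated transcript ended. A gene without a hit may therefore still have a stem-loop. Among the 24 genes there were 4 different stem-loops, and 13 genes shared the most frequent. The 3 of these genes with the most counts are given, in DNA letters with the stem-loop in capitals, 5 bases on each side and the gene's strand 5′ to 3′. H2BC18 lies at chr1:149811880-149811905 on the minus strand, H2BC4 at chr6:26123467-26123492 on the minus strand and H2BC5 at chr6:26158582-26158607 on the plus strand.
H2BC18: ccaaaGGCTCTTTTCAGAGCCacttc
H2BC4: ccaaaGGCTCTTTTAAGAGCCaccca
H2BC5: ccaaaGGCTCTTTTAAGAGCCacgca

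The RNA of the U7 particle is shown next because LSM10 and LSM11 are the proteins that set its ring apart from that of the spliceosome. The gene RNU7-1 lies at chr12:6943816-6943878 on the plus strand (GENCODE 29), and its RNA is 63 bases long. Capitals mark TTTGTCT, the core of the site on which the ring is built. RNU7-1 was listed at 0 counts in all 8 libraries, which sets no limit on its level, since how short RNAs and reads with several matches were treated is not stated in any label.
RNU7-1: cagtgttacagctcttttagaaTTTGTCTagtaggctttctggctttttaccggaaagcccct

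Of the 10 factors, 4 were lower in tDR libraries and 0 were higher. CPSF2, CPSF3, CASP8AP2 and SLBP fell, by between 12.4% and 18.1%, and NPAT, LSM10, LSM11, ZNF473, SYMPK and ERI1 did not pass. A gene was called when its Benjamini-Hochberg adjusted p, over all tested genes in edgeR's quasi-likelihood test, was under 0.05. By that rule 11.4% of all tested genes were called lower and 12.8% higher. Among the 8397 tested genes within the factors' range of level, from 3.54 to 7.15 in mean log2 CPM (counts scaled to library size), 13.8% were lower and 9.91% higher. The median log2 fold change of the 10 factors was -0.15, against 0.02 for all tested genes and -0.04 for those in their range of level. Every tDR library lay below every control library in CPM for 3 of the 10 factors, CASP8AP2, CPSF2 and SYMPK, and for 10.8% of all tested genes. The call of CPSF2 did not depend on the scaling. With library size alone in place of TMM scaling, or with estimated background reads subtracted, CPSF2 was the only factor still called. Library size alone moved the median of all tested genes from 0.02 to 0.10 and gave 5.28% lower calls.

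**Figure D1:**
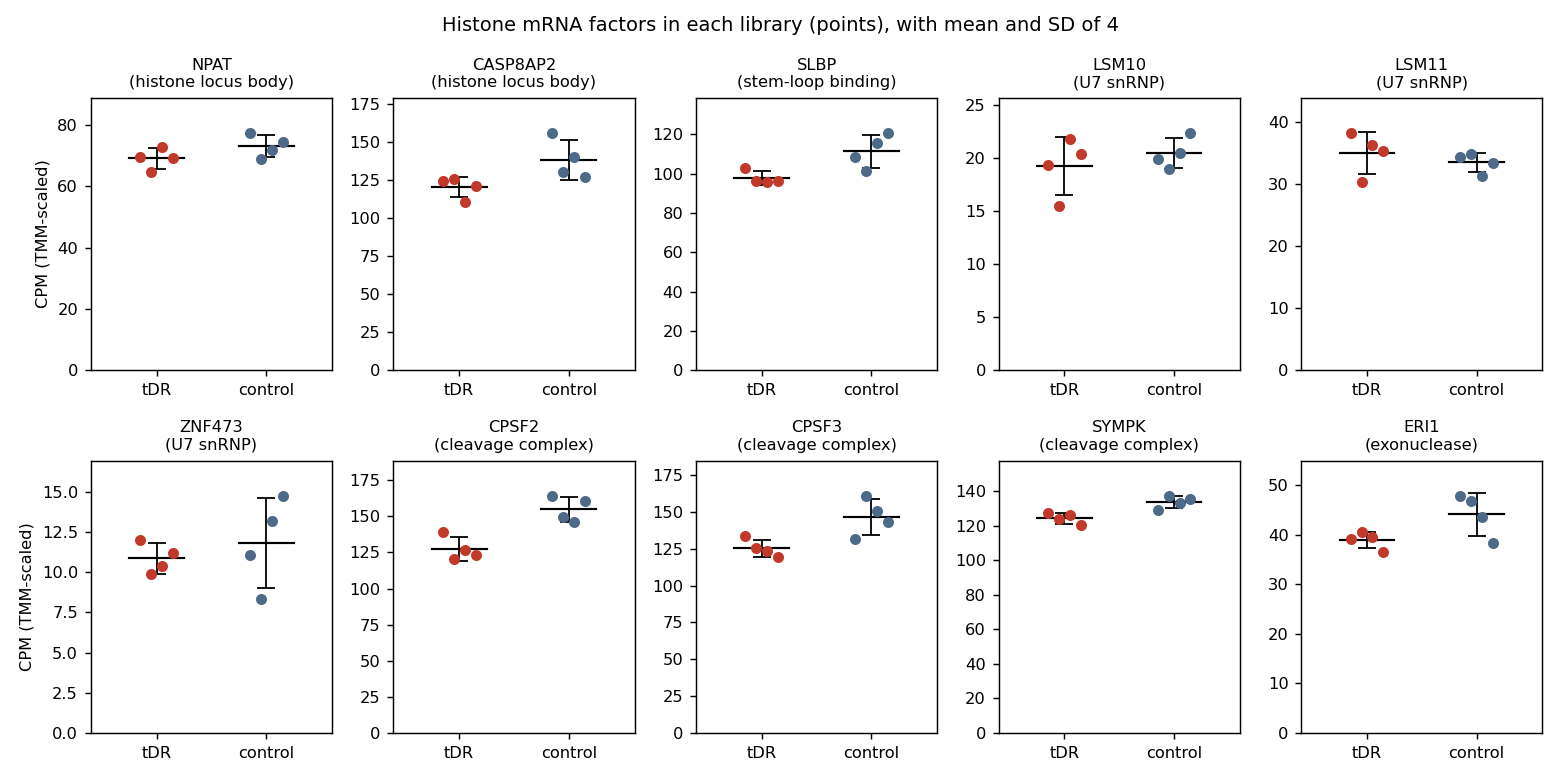
Level of each of the 10 factors in each library (points), in CPM with TMM-scaled library sizes; lines and bars give the mean and SD of 4 libraries, with tDR left of control. CPSF2, CASP8AP2 and SYMPK have no overlap between groups, and the axes start at 0.

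Total counts were between 5848305 and 9237986 in tDR libraries and between 6536554 and 10557740 in control libraries. The lowest count of any factor in any library was 68 and the highest 1632. On the first principal component of log2 CPM, with 39.6% of the variance, no tDR library lay among the controls. All 6 marker genes of HEK293 (VIM, NEFM, NEFL, PAX2, KRT8 and KRT18) had at least 50 counts in every library. The 7 markers of other cell types (ALB, PTPRC, HBB, CD3E, PECAM1, MYH6 and INS) summed to between 8.89 and 11.8 CPM in tDR libraries and between 4.05 and 5.59 CPM in control libraries, with INS at 0 throughout and PTPRC and PECAM1 the most abundant of them in tDR libraries. Reads over 381 olfactory receptor genes, which these cells should not use, came to 23.4, 25.3, 26.2 and 25.03 CPM per Mb of gene span in tDR libraries and 15.4, 17.9, 13.9 and 13.6 in control libraries. Spread over each gene's span, this background would make up between 0.374% (SLBP) and 5.48% (ERI1) of a factor's counts. Neither of these values overlapped between groups, and their part in the results was not tested beyond the subtraction above. The subtraction was made in every gene with a known span, and the filter and TMM scaling were then run anew, which left 14604 tested genes. A call that ended under it therefore cannot be assigned to background reads in that gene.

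SLBP encodes the stem-loop binding protein, which stays with histone mRNA from cleavage to translation and whose protein level rises and falls with S phase. It had 103, 96.4, 95.8 and 96.5 CPM in tDR libraries, against 109, 101, 116 and 121 CPM in control libraries. Apart from replicate 1 the tDR libraries were nearly equal, and the groups met only at their edges, where tDR replicate 1 was above control replicate 2. The mean was 97.9 ± 3.38 CPM in tDR libraries and 112 ± 8.36 CPM in control libraries (SD, n = 4 each). SLBP fell by 0.19 on the log2 scale, with a SE of 0.061 (edgeR, Benjamini-Hochberg adjusted p = 0.0176). The call ended with library size alone (log2 fold change -0.11, adjusted p = 0.203) and with background subtracted (-0.13, adjusted p = 0.146). It also ended without control replicate 4 (-0.16, adjusted p = 0.086) and without tDR replicate 4 (-0.18, adjusted p = 0.0544), while with offsets for length and GC content it stood (-0.21, adjusted p = 0.00624).

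CPSF2, CPSF3 and SYMPK encode the core of the cleavage complex that works on histone pre-mRNA and, in a larger assembly, on pre-mRNAs that receive a poly(A) tail. CPSF3 is the endonuclease, CPSF2 its partner without catalytic activity and symplekin, the product of SYMPK, the scaffold. CPSF2 had 139, 121, 126 and 123 CPM in tDR libraries, against 164, 150, 146 and 160 CPM in control libraries. Every tDR library was below every control library. CPSF2 fell by 0.29 ± 0.057 on the log2 scale (SE, edgeR, Benjamini-Hochberg adjusted p = 0.000112), a level 18.1% lower with a 95% interval for the change from -24.3% to -11.4%. This was the largest change among the 10 factors, and it was called under all 17 alternative settings, with log2 fold changes between -0.34 and -0.21.

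CPSF3 had 133, 125, 123 and 120 CPM in tDR libraries, against 132, 161, 151 and 143 CPM in control libraries. The groups overlapped through control replicate 1 alone, which was below tDR replicate 1. CPSF3 fell by 0.23 ± 0.058 on the log2 scale (SE, edgeR, Benjamini-Hochberg adjusted p = 0.0029). The call ended with library size alone (-0.14, adjusted p = 0.0608) and with background subtracted (-0.17, adjusted p = 0.0572).

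SYMPK had 127, 124, 126 and 120 CPM in tDR libraries, against 129, 137, 133 and 136 CPM in control libraries. It was the most even of the 10, with a coefficient of variation of 2.59% in tDR libraries and 2.65% in control libraries, and the groups did not overlap. Its log2 fold change was -0.10 (95% interval -0.22 to 0.01) and did not pass (edgeR, Benjamini-Hochberg adjusted p = 0.165), and with library size alone it was -0.02.

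NPAT and CASP8AP2 encode the proteins on which histone locus bodies are built. NPAT is a target of cyclin E and CDK2 and a coactivator of histone genes, and the product of CASP8AP2, also called FLASH, binds LSM11 and helps to recruit the cleavage factors. CASP8AP2 had 124, 126, 111 and 122 CPM in tDR libraries, against 156, 130, 140 and 127 CPM in control libraries. Its groups did not overlap, but the gap between the highest tDR library and the lowest control library was narrow. It fell by 0.20 ± 0.060 on the log2 scale (SE, edgeR, Benjamini-Hochberg adjusted p = 0.0122). The call of CASP8AP2 ended under 6 of 17 alternative settings. These were library size alone (-0.11), background subtraction (-0.14), the correction for length and GC content (-0.13, and -0.12 with the replicate block as well), and leaving out control replicate 1 (-0.14) or tDR replicate 3 (-0.17), with adjusted p between 0.0695 and 0.163. NPAT had 69.6, 64.8, 73.0 and 69.4 CPM in tDR libraries, against 77.3, 69.0, 72.0 and 74.4 CPM in control libraries. These groups overlapped, and the log2 fold change of -0.08 did not pass (95% interval -0.22 to 0.06, edgeR, Benjamini-Hochberg adjusted p = 0.411). With library size alone it was 0.0014, so no direction is given for NPAT.

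The 3 factors of the U7 particle had lower counts than the others and none passed. LSM10 and LSM11 encode the Sm-like proteins that take the place of SNRPD1 and SNRPD2 in the ring, and ZNF473, also called ZFP100, encodes a zinc finger protein that binds the stem-loop complex and LSM11. LSM10 had 19.3, 15.5, 21.8 and 20.3 CPM in tDR libraries, against 19.9, 18.96, 20.5 and 22.3 CPM in control libraries. LSM11 had 38.1, 30.3, 36.3 and 35.2 CPM in tDR libraries, against 34.3, 34.9, 31.3 and 33.4 CPM in control libraries. Both pairs of groups overlapped, with tDR replicate 2 the lowest tDR library in each. LSM11 was the only factor with a positive log2 fold change (0.06, 95% interval -0.13 to 0.25, edgeR, Benjamini-Hochberg adjusted p = 0.699), and LSM10 stood at -0.09 (95% interval -0.33 to 0.16, edgeR, Benjamini-Hochberg adjusted p = 0.655). ZNF473 had 12.02, 9.86, 10.4 and 11.2 CPM in tDR libraries, against 11.1, 8.32, 13.2 and 14.7 CPM in control libraries. Its control libraries spread most among the 10 factors, with a coefficient of variation of 23.5%, and all tDR libraries lay inside their range. The log2 fold change of ZNF473 was -0.13 (95% interval -0.46 to 0.20, edgeR, Benjamini-Hochberg adjusted p = 0.62), and it was -0.0014 without control replicate 4 and -0.27 without control replicate 2. These intervals leave room for falls as large as that of CPSF2 in LSM10 and ZNF473, but not in LSM11.

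ERI1 encodes an exonuclease that binds the stem-loop beside SLBP and trims histone mRNA from its 3' end, both after cleavage and in decay. It had 39.1, 40.5, 39.7 and 36.6 CPM in tDR libraries, against 47.8, 46.8, 43.5 and 38.3 CPM in control libraries. Control replicate 4 lay among the tDR libraries and the other 3 control libraries above them. The log2 fold change of -0.18 did not pass (95% interval -0.36 to -0.00, edgeR, unadjusted p = 0.0469, Benjamini-Hochberg adjusted p = 0.133). Without control replicate 4 it was -0.26 and was called (adjusted p = 0.0419).

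**Figure D2:**
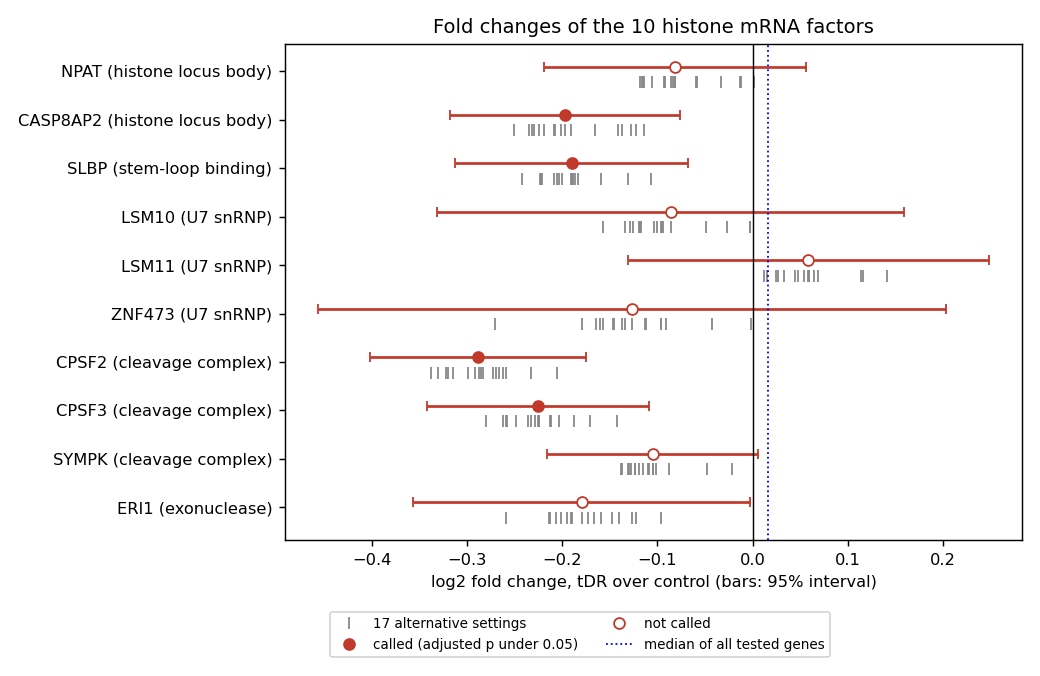
Log2 fold change of each factor, tDR over control, with its 95% interval (circles, filled where called), and the values under 17 alternative settings (grey ticks). The intervals of CPSF2, CPSF3, CASP8AP2 and SLBP lie below 0, as does that of ERI1, which was not called after adjustment; the dotted line is the median of all tested genes, 0.02.

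**Figure D3:**
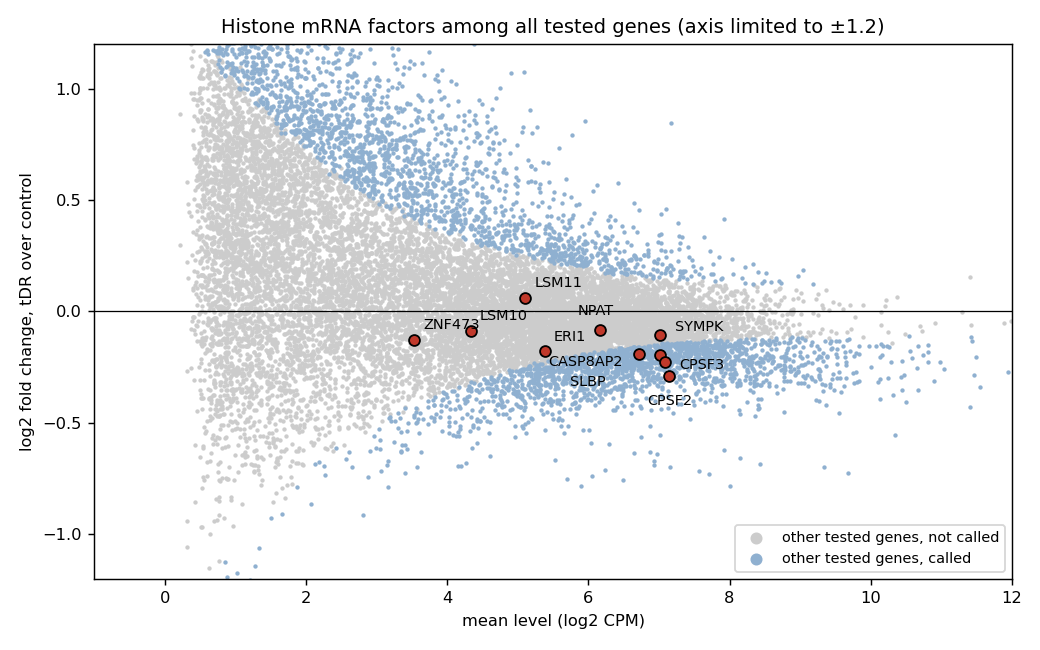
Log2 fold change, tDR over control, against mean level in log2 CPM for all 17184 tested genes, with the 10 factors marked; 324 genes lie beyond 1.2 in size, outside the axis. The 4 called factors, CPSF2, CPSF3, CASP8AP2 and SLBP, lie at higher levels than LSM10, LSM11 and ZNF473.

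The factors also differed widely in level. Per kb of merged exons, SLBP was highest with 48.3 ± 1.67 CPM per kb in tDR libraries and 55.0 ± 4.13 in control libraries (SD, n = 4 each). CPSF3 followed with 33.3 ± 1.53 and 38.9 ± 3.22 CPM per kb in tDR and control libraries. In tDR and control libraries CASP8AP2 had 14.8 and 16.9 CPM per kb, LSM10 12.8 and 13.7, and SYMPK 11.7 and 12.6. CPSF2 had 9.37 and 11.4 CPM per kb in tDR and control libraries, NPAT 9.18 and 9.71, ERI1 6.10 and 6.91 and LSM11 5.31 and 5.08. ZNF473 was lowest with 1.58 ± 0.138 CPM per kb in tDR libraries and 1.71 ± 0.403 in control libraries. LSM10 and SYMPK differed by less than their SDs added together in both groups, and CASP8AP2 and LSM10, like CPSF2 and NPAT, did so in tDR libraries, so these neighbours have no clear order there. Per kb of the principal transcript the order changed at several places, with CPSF3 at 53.5 and 62.5 and SLBP at 49.5 and 56.4 CPM per kb in tDR and control libraries, and SYMPK next at 29.7 and 31.9. No label says whether reads were counted over exons or over whole genes, which limits any comparison of levels between genes.

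Ratios of raw counts within a library need no scaling between libraries. The 8 ratios were chosen after counts had been seen, and each was compared by an exact two-sided permutation test of its log2 over 70 assignments of 8 libraries, in which the smallest possible p is 0.0286. Replication-dependent histone counts per SLBP count were 40.7, 39.8, 40.4 and 39.8 in tDR libraries, against 52.1, 60.8, 56.3 and 52.7 in control libraries. The tDR libraries were nearly equal and all below the controls (40.2 ± 0.436 and 55.5 ± 3.98 in tDR and control libraries, SD, n = 4 each, exact permutation p = 0.0286, Benjamini-Hochberg adjusted p = 0.114 over 8 ratios). Histone counts per CPSF2 count were 30.1, 31.9, 30.6 and 31.1 in tDR libraries, against 34.6, 41.1, 44.6 and 39.6 in control libraries (exact permutation p = 0.0286, Benjamini-Hochberg adjusted p = 0.114). In both ratios histone counts were lower relative to the factor in 4 of 4 tDR libraries, by 0.46 and 0.36 on the log2 scale, and neither passed after adjustment. Over 8 ratios an adjusted p under 0.05 needs at least 5 of them at the smallest possible p, so a miss says little here.

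Within the cleavage complex, CPSF2 counts per SYMPK count averaged 1.02 ± 0.051 in tDR libraries and 1.16 ± 0.0841 in control libraries. CPSF3 counts per SYMPK count averaged 1.01 ± 0.03 in tDR libraries and 1.10 ± 0.0688 in control libraries (SD, n = 4 each, exact permutation p = 0.0571 and adjusted p = 0.114 for each of these ratios). CPSF2 per CPSF3 was 1.02 ± 0.0364 in tDR libraries and 1.07 ± 0.143 in control libraries (exact permutation p = 0.6). The groups overlapped in each of these 3 ratios. The ratios of LSM10 to LSM11 (0.549 ± 0.047 in tDR and 0.612 ± 0.0592 in control libraries, exact permutation p = 0.143), of CASP8AP2 to NPAT (1.75 ± 0.174 and 1.89 ± 0.133 in tDR and control libraries, p = 0.286) and of SLBP to ERI1 (2.52 ± 0.138 and 2.56 ± 0.445, p = 0.943, exact permutation, n = 4 each) did not pass either.

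**Figure D4:**
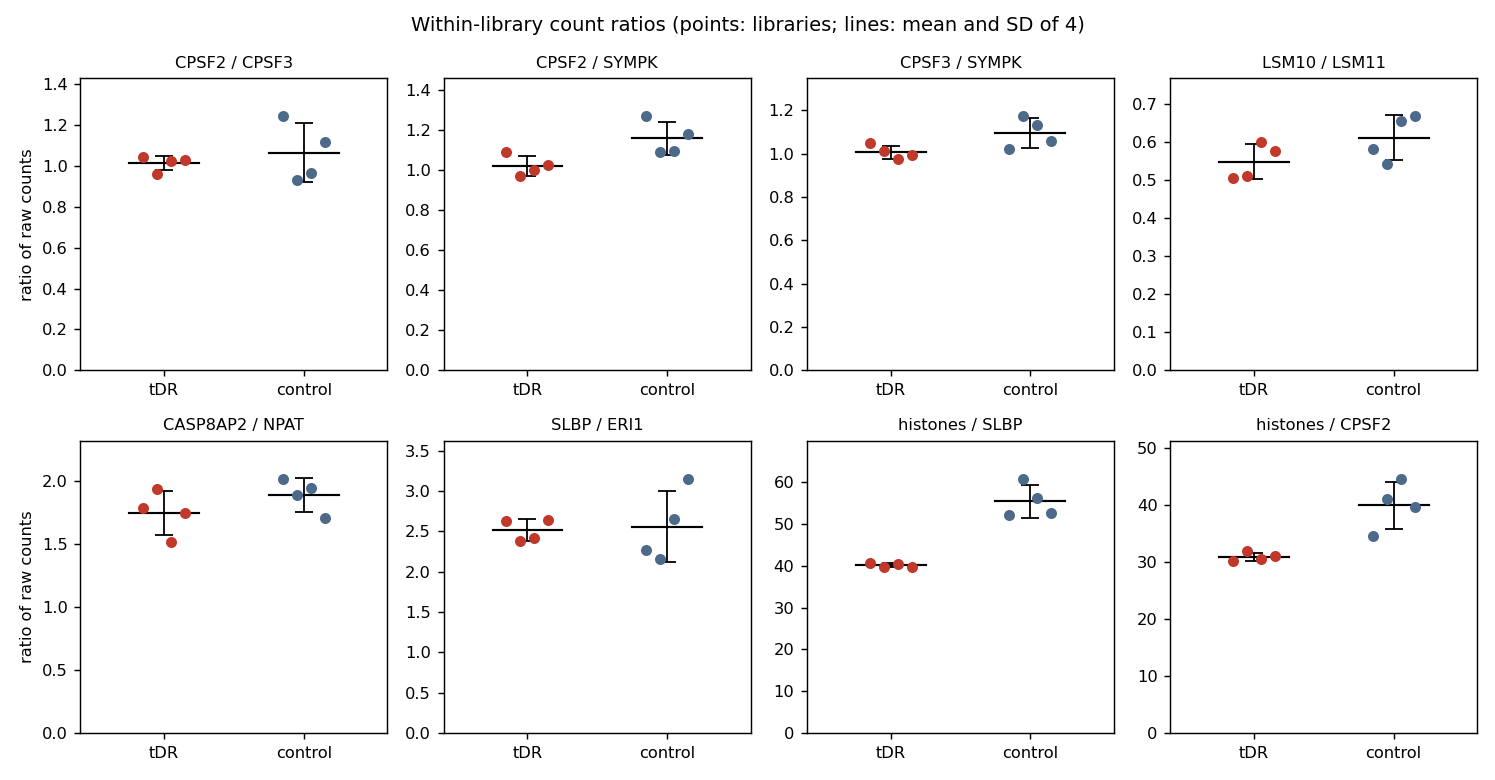
Ratios of raw counts within each library (points), with mean and SD of 4 libraries and tDR left of control; the axes start at 0. Replication-dependent histone counts per SLBP count sit near 40 in all tDR libraries and between 52.1 and 60.8 in control libraries.

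Several factors share a start region with a gene on the other strand. CPSF2 and NDUFB1, a gene of respiratory complex I, start 20 bases apart, and CPSF3 and ITGB1BP1, a gene for a protein that binds integrin beta 1, start 21 bases apart (GENCODE 29). Both of these partners were also lower. ITGB1BP1 had 37.8, 36.2, 30.1 and 36.1 CPM in tDR libraries, against 43.2, 40.6, 40.5 and 43.7 CPM in control libraries, and fell by 0.27 on the log2 scale (edgeR, Benjamini-Hochberg adjusted p = 0.0235). Its groups did not overlap, but the call ended under 4 settings, namely library size alone, background subtraction, and without control replicate 4 or tDR replicate 3. NDUFB1 had 25.9, 27.0, 32.8 and 25.4 CPM in tDR libraries, against 53.9, 32.0, 36.1 and 31.4 CPM in control libraries, and fell by 0.47 on the log2 scale (edgeR, Benjamini-Hochberg adjusted p = 0.00193). Control replicate 1 was far above the other controls, and without it the log2 fold change was -0.26 and was not called (adjusted p = 0.0758). NPAT starts 158 bases from ATM (-0.10, not called) and ZNF473 starts 232 bases from VRK3 (-0.08, not called). SYMPK starts 699 bases from FOXA3, which was low, with 1.48 CPM in tDR libraries and 0.974 CPM in control libraries (0.56, not called). NPAT shares 143 exonic bases with ATM, and ZNF473 shares 223 with VRK3, so their counts are uncertain to that extent if strand was not used in counting.

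The sequences upstream of CPSF2 and CPSF3 are shown because each is also the start region of a partner gene that was called lower. Start regions shared with a partner that was not called, as for NPAT and ATM, are not shown. Printed are the 250 bases before the RefSeq start on the plus strand (GRCh38.p14), CPSF2 at chr14:92121719-92121968 and CPSF3 at chr2:9423404-9423653. RefSeq promoter windows, from 250 bases before to 50 after the start, were found for 8 of the 10 factors (not for ZNF473 and ERI1) and searched on both strands for TTTNNCGC, a form of the E2F site, and for CCGGAAG, a form of the ETS site, which share no bases here. TTTNNCGC was in the windows of CASP8AP2 and CPSF3 and in 6.89% of all 35114 windows. CCGGAAG was in that of CPSF3 and in 10.3% of all. Capitals mark these letters.
CPSF2: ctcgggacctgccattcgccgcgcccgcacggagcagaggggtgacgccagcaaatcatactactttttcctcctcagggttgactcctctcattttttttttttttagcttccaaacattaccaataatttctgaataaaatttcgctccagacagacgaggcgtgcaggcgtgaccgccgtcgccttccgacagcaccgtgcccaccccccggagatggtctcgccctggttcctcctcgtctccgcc
CPSF3: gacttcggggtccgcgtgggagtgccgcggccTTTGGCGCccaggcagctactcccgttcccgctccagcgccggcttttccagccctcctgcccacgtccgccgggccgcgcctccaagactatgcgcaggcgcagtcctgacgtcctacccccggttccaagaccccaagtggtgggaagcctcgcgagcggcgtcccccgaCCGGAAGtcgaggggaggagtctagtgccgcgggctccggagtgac

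Other genes of the same pathway were read from lists chosen with earlier results of these data known. In each list more members were called lower than higher. That was also so for all tested genes in the factors' range of level (13.8% lower and 9.91% higher). It was not so for all tested genes (11.4% lower and 12.8% higher). Some listed genes, such as SRRT and MCM3, lie above that range of level. Library size alone lowered the count to 3 in the U7 ring and to 3 in the list of cap link and SLBP translation genes. Background subtraction lowered these counts to 3 and 4. The 5 Sm proteins that U7 shares with the spliceosome had 4 tested members, all of which fell (4 of 4), the median being -0.33 on the log2 scale. SNRPF fell to 154 ± 6.68 CPM in tDR libraries, against 206 ± 13.3 CPM in control libraries (-0.42 on the log2 scale, adjusted p = 2.18e-08 by edgeR and Benjamini-Hochberg). SNRPG (-0.37), SNRPE (-0.29) and SNRPB (-0.23) fell as well. SNRPD3 had 9 counts in all and was not tested. Of the pair whose places LSM10 and LSM11 take, SNRPD1 fell (-0.35) and was called under all 17 alternatives. SNRPD2 stood at -0.16 and did not pass, and it was called along with SNRPD1 under 7 of 17 alternatives. The list of genes that link the cap to histone mRNA or act with SLBP in translation had 6 tested members. Of these 5 fell, with a median of -0.29. SRRT, which encodes the ARS2 protein that links the cap to histone 3' processing, fell to 277 ± 8.57 CPM in tDR libraries, against 347 ± 21.4 CPM in control libraries (-0.32 on the log2 scale, adjusted p = 8.59e-07 by edgeR and Benjamini-Hochberg). The genes of the cap-binding complex itself, NCBP1 (-0.25) and NCBP2 (-0.37), fell, as did the exonuclease gene XRN2 (-0.21).

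The rest of the cleavage and polyadenylation machinery had 12 tested genes, of which 3 fell and 0 rose, with a median of -0.14. The count depended on the setting. It was 1 with library size alone or background subtracted, 4 to 5 without each library, 5 with DESeq2 or with offsets for length and GC content, and 6 with no filter. The 3 were CPSF6 (-0.23), of cleavage factor I, the poly(A) polymerase gene PAPOLA (-0.19) and RBBP6 (-0.19). CPSF1, the largest CPSF subunit, stood at -0.04 and CSTF2, which also joins the histone cleavage complex, at -0.16, and neither passed. Of 14 tested genes of histone mRNA decay, 5 fell and 0 rose, with a median of -0.15. The 5 are among 6 tested members of the LSM ring that binds the 3' end of mRNAs in decay, in which LSM1 stood at -0.23 and did not pass. They include LSM3 (-0.37), LSM4 (-0.26), LSM5 (-0.31) and LSM6 (-0.32). The count was 4 to 8 without each library, with 8 without tDR replicate 1, and 2 with library size alone, 3 with background subtracted and 7 with offsets for length and GC content. UPF1 (-0.10) and the uridylating enzymes TUT4 (-0.13) and TUT7 (-0.13) did not pass. Of 9 tested genes of histone gene transcription 2 fell, POU2F1 (-0.21), which encodes OCT1, and COIL (-0.26), which encodes coilin, with a median of 0.0008. HINFP (0.06) and the cyclin E genes CCNE1 (0.18) and CCNE2 (-0.16) did not pass. CDK2, CPSF4, CSTF2T and LSM7 were listed at 0 counts in all libraries, which sets no limit on their level. Of the transcription genes 0 were called lower with library size alone and 1 with background subtracted.

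**Figure D5:**
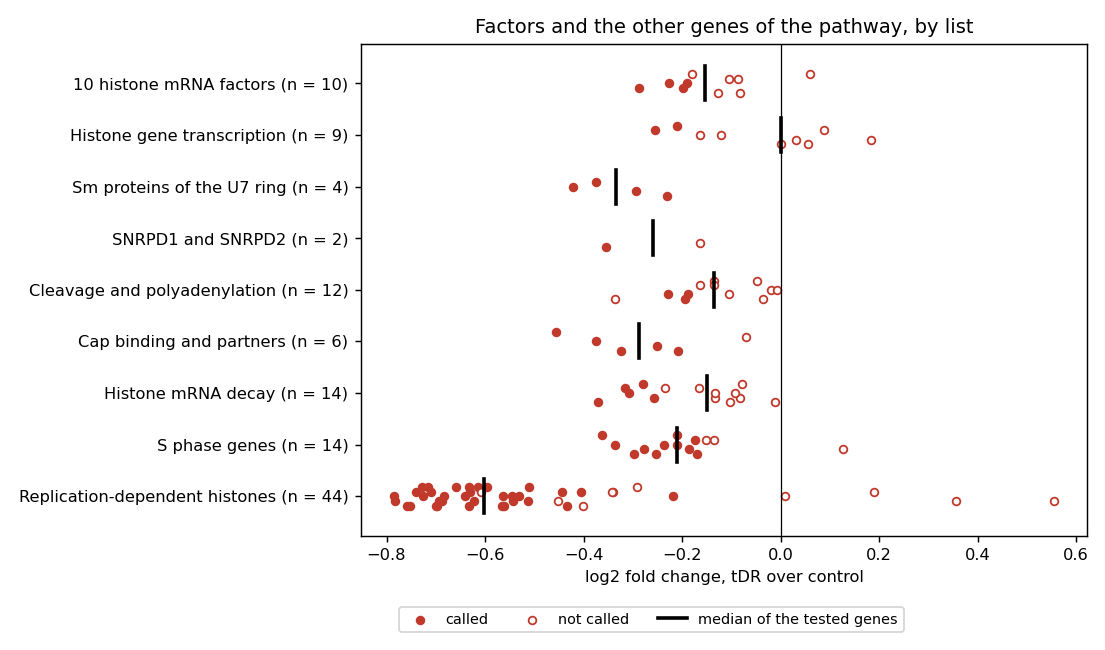
Log2 fold change, tDR over control, of the tested genes in each list (circles, filled where called) with the median of each list (bar). The 10 factors lie between -0.29 and 0.06, and the replication-dependent histones have the lowest median, -0.60.

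The replication-dependent histone genes, on whose mRNAs the factors act, had 44 tested genes, of which 34 fell and 0 rose, with a median of -0.60. Of 14 tested S phase genes, 11 fell and 0 rose, with a median of -0.21, among them MCM6 (-0.36), MCM3 (-0.28), MCM2 (-0.30) and MCM7 (-0.25), subunits of the helicase that opens DNA for copying. MCM5 (-0.14), CCNA2 (-0.15) and CDT1 (0.13) did not pass. Their part in the values of SLBP was not tested. With library size alone 7 S phase genes and 33 histone genes were called lower, and with background subtracted 7 and 32.

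Among 9138 genes with a mean log2 CPM above 4, those that followed SLBP closely over the 8 libraries included GTF2H2C (Pearson r = 0.966), MRPL37 (0.964), IQGAP1 (0.953) and RBBP5 (0.947). Of the other factors CPSF2 followed SLBP most closely (r = 0.809), and ERI1 (0.203) and LSM11 (-0.263) least. These values describe the same 8 libraries, share their scaling and include the difference between groups.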

How the data were processed

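The authors deposited whole-number read counts per gene with no normalization, 1 column per library. Per the labels' protocols, RNA was extracted with TRIzol and the SMARTer Pico v2 kit, which keeps strand, was used. Named without role or order, per the submitters' processing notes, are FastQC 0.11.9, STAR 2.7.8a, DESeq2 1.30.1, cutadapt 2.10 and featureCounts 2.0.2, with GRCh38.p13 and hg38 as builds. Strand setting and annotation release are not stated there.

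Counts were tested with edgeR 4.0.16 in R 4.3.3, over 8 libraries in a model of group alone, with TMM scaling and the filterByExpr filter. The SE is the absolute log2 fold change divided by the square root of F, and 95% intervals use the t distribution with the fit's degrees of freedom. Levels are CPM with TMM-scaled library sizes. The steps were tested on counts simulated for 17184 genes. Of 50 genes changed 1.2-fold, 12 (24%) were called in the right direction. The share was 58% at 1.3-fold, 60% at 1.5-fold and 68% at 2-fold, and 5.41% of calls were false. The changed genes were drawn from all levels, so these shares are not those of the factors. Small changes can be missed, so a gene that did not pass may still have changed. All pairs of libraries differed beyond counting noise (chi-square 2.13 to 7.36 per degree of freedom). GENCODE 29 gave lengths and positions for 94.1% of genes, holding 99.6% of counts.

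Alternatives were median-ratio factors, library size alone, DESeq2 1.42.0, no filter, a mean count of 10, a replicate block, leaving out each library, smooth offsets for length and GC content (mgcv), and background subtraction. The combination of length and GC correction with the block, and the ratios, were chosen after seeing the data. All 10 factors are named, with up to 4 called genes of smallest p from each other list and, from the 5 genes most like SLBP, those given in the text. Some items covered by these rules are not reported here. Genes beside a factor's start, and genes named with values that did not pass, fall outside this rule and were chosen after their values were seen. The factors and lists were chosen with earlier results of these data known.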

Additional observations from a re-analysis of the deposited data

Results flagged for a closer look

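In 37 genes, each read in the tDR and in the control libraries (74 sets of 4), 4 libraries stood apart from the other 3 of their group, which chance gives in about 1 set of 20. SLBP had 103 CPM in tDR replicate 1, against 95.8 to 96.5 CPM in the other tDR libraries. SNRPE had 95.9 CPM in tDR replicate 4, below 106 to 107 CPM in the others. SNRPB had 126 CPM in control replicate 1, below 150 to 153 CPM in the others. NCBP1 had 153 CPM in control replicate 3, above 135 to 138 CPM in the others. None of these genes lost its call without that library.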

How the results depend on the processing

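Of 170 values of the 10 factors under 17 alternatives, 156 kept direction and side of the threshold, 12 lost a call, 1 gained one (ERI1 without control replicate 4) and 1 reversed, NPAT with library size alone (0.0014). The partner gene VRK3 also reversed there (0.0040). Factors called lower numbered 1 in place of 4 with library size alone and 1 with background subtracted, CPSF2 in both; without each library they numbered 3 to 4. Over all genes, library size alone gave 907 lower calls (21.6% of calls, against 47.1%), background subtraction gave 1016 lower and 1092 higher, and DESeq2 gave 1432 higher and 2133 lower (59.8% lower); without each library 1511 to 2109 were lower and 1640 to 2200 higher. Why these counts moved was not tested. With the replicate block 4 factors stayed called and 1834 genes were lower. Same-numbered libraries showed no common deviation from their group means (correlations -0.0975 to 0.0656). With so few libraries this cannot decide whether the numbers pair them, and the labels do not say. Without each library the log2 difference changed sign for SLBP to ERI1 (-0.09 to 0.09) and CPSF2 to CPSF3 (-0.12 to 0.02), and that of CASP8AP2 to NPAT was -0.17 to -0.05. At 68 to 150 counts per library, the interval of ZNF473 was too wide to exclude a fall as large as that of CPSF2.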
